A study of Caenorhabditis elegans with 12 samples.

Results

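The 161 long intergenic noncoding RNA genes of Caenorhabditis elegans whose names begin with linc- were taken by name from deposited small RNA tables of 42048 genes. The values describe the small RNAs that map to these genes, not the long transcripts themselves. Small RNA libraries were made from young mothers of 3 strains fed on HT115 bacteria that make double-stranded RNA of 400 nt against pos-1, at 20 °C. The strains were meg-3(ax3055) meg-4(ax3052), which carries both mutations, rde-11(hj37) and the wild type N2, and all of them, N2 included, received the same pos-1 double-stranded RNA, so no group was free of it. RNA of each strain was either treated with a 5′ polyphosphatase or left untreated before cloning, with 2 libraries for each of the 6 groups and 12 libraries in all. The labels do not say whether the libraries of a group came from separate cultures, so the p-values measure the spread between these libraries, which may be technical. As strain number, JH3475 stands in some titles of the double mutant and JH3745 in others, while the genotype label is the same for all of them.

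A long intergenic noncoding RNA is a transcript that lies between protein-coding genes and has no recognised reading frame. In the annotation used here, however, 62 of the 161 linc genes overlap another gene, and 55 overlap a gene other than a piRNA gene. In worms, RNA-dependent RNA polymerases copy a target transcript into short antisense RNAs that begin with a 5′ triphosphate, and Argonaute proteins use these secondary small RNAs to silence or mark the target. A cloning protocol that ligates to a 5′ monophosphate misses them unless a polyphosphatase removes the extra phosphates first, whereas microRNAs and piRNAs carry a monophosphate already. MEG-3 and MEG-4 are disordered proteins of the germ granules, and RDE-11 is a factor that worms need to amplify the response to foreign double-stranded RNA.

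Reads assigned to genes numbered 3884534 to 5278777 per library, and 1 read equalled 0.189 to 0.257 fpm, the deposited unit of fragments scaled to the library total. In treated RNA the small RNAs of meg-4 lay at 0 and 0.379 fpm in meg-3 meg-4 worms, against 72.5 and 71.4 fpm in N2, and those of meg-3 averaged 1.19 ± 0.190 fpm in meg-3 meg-4 worms and 12.1 ± 3.21 fpm in N2 (SD, n = 2 each). Small RNAs of rde-11 itself did not pass the test in rde-11 worms (log2 change 0.25 ± 0.10 SE, limma adjusted p = 0.132), and the labels do not say what the hj37 allele changes in the sequence, so this check says nothing of that label. The microRNAs mir-35 to mir-42, used here as embryo markers, were summed in treated RNA, with all 8 detected. The sum averaged 8434 ± 1219 fpm in meg-3 meg-4 worms, 10699 ± 1216 fpm in rde-11 worms and 10033 ± 565 fpm in N2. Whether this sum follows the number of embryos was not tested. The samples are whole animals, so fewer cells that make a small RNA and less of it in each cell cannot be told apart.

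Of the 161 linc genes, 134 had at least 1 read in some library and 27 had none. In treated N2 RNA, 6 genes averaged at least 1000 fpm, 10 lay between 100 and 1000 fpm, 17 between 10 and 100 fpm, 25 between 1 and 10 fpm, 47 above 0 and under 1 fpm, and 56 at 0. A value of 0 in these libraries allows up to 0.568 to 0.772 fpm, the worth of 3 reads. The upper end was therefore narrow: linc-29 alone held 35.7% of all linc reads in meg-3 meg-4 worms, 50.5% in rde-11 worms and 40.3% in N2. The gene linc-22, second in meg-3 meg-4 worms and in N2 but not in rde-11 worms, held 23.0%, 21.5% and 3.91% in that order.

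Per kilobase of exon, the order of the treated N2 levels was linc-29 at 18926 fpm per kb, linc-6 at 4356, linc-21 at 3281, linc-63 at 2653, linc-8 at 2502 and linc-22 at 1558 fpm per kb. The exon models behind this order measure 629 nt for linc-29, 174 nt for linc-6 and 4071 nt for linc-22, whose second place by total reads thus rests in part on its length. In meg-3 meg-4 worms linc-6 reached 13037 fpm per kb, behind linc-29 at 18624. In rde-11 worms linc-22 fell to 180 fpm per kb, under linc-59 at 1842 and linc-8 at 1072.

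Treated RNA held far more linc small RNA than untreated RNA in every strain. The summed linc level was 32795 ± 1501 fpm in treated against 488 ± 4.6 fpm in untreated RNA of meg-3 meg-4 worms. It was 18758 ± 31.7 fpm in treated against 839 ± 50.9 fpm in untreated RNA of rde-11 worms, and 29525 ± 416 fpm in treated against 661 ± 10.3 fpm in untreated RNA of N2 (SD, n = 2 each). These sums were 3.28%, 1.88% and 2.95% of the treated libraries of meg-3 meg-4, rde-11 and N2.

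Gene by gene, limma at an adjusted p under 0.05 called 42 of 48 tested linc genes higher and 4 lower in treated than in untreated RNA of meg-3 meg-4 worms. It called 41 of 51 higher and 5 lower in rde-11 worms, and 43 of 49 higher and 4 lower in N2. Of all genes tested, 57.1% were called higher and 32.5% lower in meg-3 meg-4 worms (89.6% in all), 55.3% and 38.6% in rde-11 worms (93.9%), and 57% and 35.4% in N2 (92.3%), so a call by itself says little here. The median log2 change of the linc genes was 2.98, 2.50 and 3.02 in the 3 strains in that order, beside 1.82, 1.73 and 1.86 over all genes tested. Protein-coding genes alone had medians of 3.20, 3.42 and 3.33, with 87.3%, 87.6% and 87.9% called higher, so the linc medians were not above those of protein-coding genes. The linc genes called higher in all 3 strains numbered 37.

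The treated level of linc-29 was 12040 and 11769 fpm in N2, against 21.5 and 30.4 fpm in its untreated RNA, a 459-fold difference. For linc-22 the same ratio was 318-fold in N2, and for linc-6 it was 150-fold. Every treated library lay far above every untreated one for these 3 genes.

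**Figure D1:**
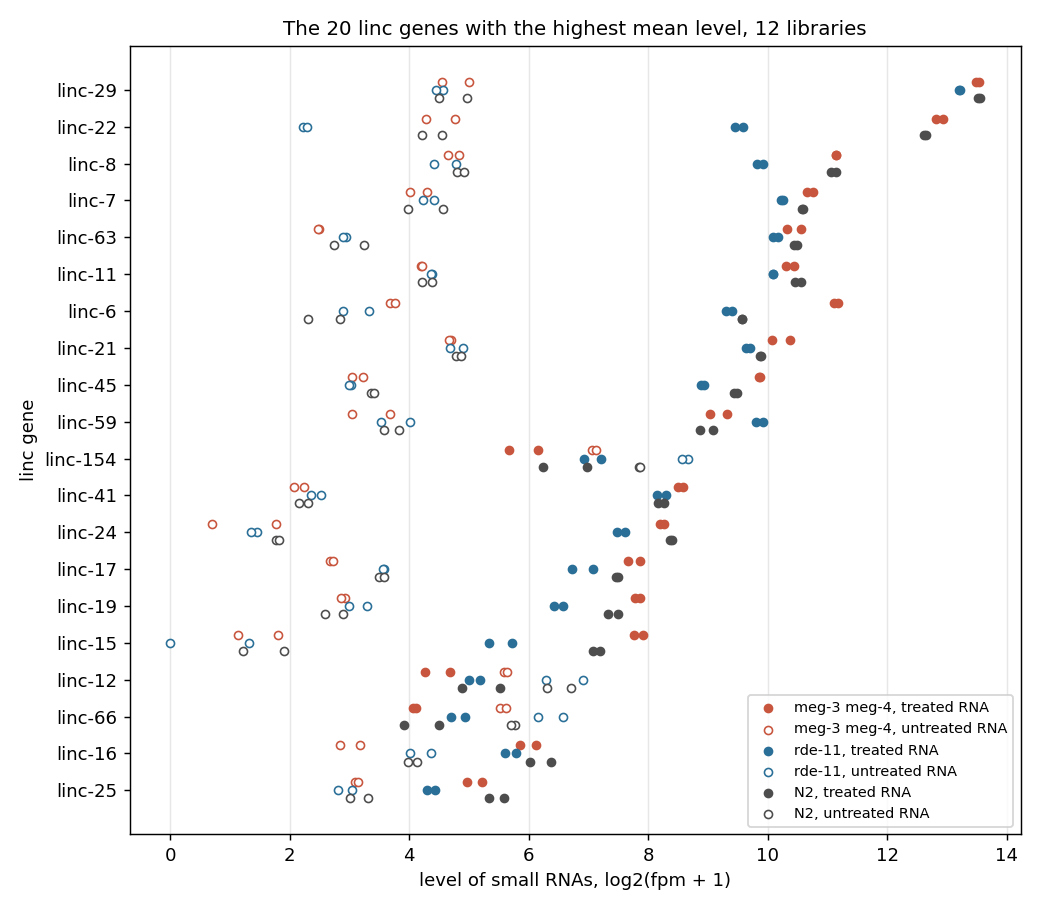
The 20 linc genes with the highest mean level, as log2(fpm + 1) in each of the 12 libraries. Filled points are treated RNA and open points untreated RNA, with the strain given by colour. Most genes lie far to the right in treated RNA, while linc-154, linc-12 and linc-66 lie to the right in untreated RNA, and the filled rde-11 points of linc-22 stand left of those of the other strains.

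In 4 linc genes the order was turned round, with fewer fpm in treated than in untreated RNA of all 3 strains. These were linc-154, linc-12, linc-66 and linc-36. An fpm value is a share of its library's total, and the make-up of the libraries differs by treatment. In N2 the summed embryo microRNAs also fell, from 33351 ± 1570 fpm in untreated to 10033 ± 565 fpm in treated RNA (SD, n = 2 each). No centring was run between the RNA treatments, and the part of library make-up in these 4 genes was not tested. For linc-154, treated RNA of N2 held 126 and 74.7 fpm, against 230 and 232 fpm in untreated RNA, a 2.31-fold lower level (log2 change -1.25 ± 0.27 SE, limma adjusted p = 0.00600). For linc-12 treated N2 RNA held 44.8 and 28.6 fpm, against 103 and 78.3 fpm in untreated RNA (log2 change -1.30 ± 0.28, limma adjusted p = 0.00592). In both genes the treated and untreated libraries of N2 did not overlap.

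The same held for linc-66, at 14.1 and 21.7 fpm in treated against 53.5 and 51.2 fpm in untreated RNA of N2, and for linc-36, at 5.30 and 10.5 fpm in treated against 23.2 and 28.3 fpm in untreated RNA. In addition linc-134 was called lower in treated RNA of rde-11 worms (log2 change -0.75 ± 0.24 SE, limma adjusted p = 0.0235). Per kilobase of exon linc-12 stood first in untreated N2 RNA at 465 fpm per kb, ahead of linc-66 at 117 and linc-154 at 98.4. In that RNA linc-154 supplied 27.7% of all linc reads in meg-3 meg-4 worms, 46.8% in rde-11 worms and 34.97% in N2. The annotation places the microRNA gene mir-8196.1 inside linc-154 on the same strand, and that gene was listed at 31.5 ± 3.01 fpm in meg-3 meg-4 worms, 28.8 ± 3.33 fpm in rde-11 worms and 31.1 ± 2.80 fpm in N2 in untreated RNA (SD, n = 2 each). The sources used here do not say how reads over both genes were assigned.

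Treated small RNAs of many linc genes were lower in rde-11 worms than in N2. Of 57 linc genes that averaged 1 fpm or more, limma called 17 lower and 1 higher than N2, beside 4.48% lower and 6.34% higher among all 16491 genes tested (10.8% called in all). The linc share called lower was 29.8%, and 38 of the 57 estimates were below 0. The median linc change was -0.34 on the log2 scale, while the median of all genes tested was 0.11. The other 104 linc genes were under the minimum and were not tested.

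At a mean of at least 50 fpm, 11 of 17 linc genes were called lower and 1 higher, while 8.64% of all genes at that level were called lower and 18.9% higher. The antisense noncoding RNA genes, named anr-, gave 3 lower and 0 higher of 32 tested. Median gene centring set each library to the median of the genes that averaged at least 50 fpm. It moved the median of all genes tested to -0.11 and raised the linc genes called lower to 28. Centring on the microRNAs, by the median of those that averaged at least 50 fpm, reduced the linc genes called lower to 11. The linc median stayed below 0 under both, at -0.56 and -0.27. In edgeR, 25 linc genes were called lower and 1 higher, beside 7.97% lower and 4.4% higher of all genes, and the 18 called by limma were all among them with the same direction.

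The gene with the largest change was linc-22, a gene on chromosome X. Its treated level was 703 and 764 fpm in rde-11 worms, against 6424 and 6257 fpm in N2. The rde-11 libraries were 8.65-fold lower, with no overlap (log2 change -3.11 ± 0.08 SE, limma adjusted p = 1.33e-10). Without linc-22 the linc sum was still lower, at 18025 ± 11.8 fpm in rde-11 worms and 23184 ± 298 fpm in N2 (SD, n = 2 each).

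Features that the annotation places inside linc-22 moved with it. The piRNA gene 21ur-9719, on the opposite strand, held 35.2 ± 2.85 fpm in rde-11 worms and 190 ± 9.54 fpm in N2 in treated RNA, and averaged 0.859 fpm in rde-11 worms and 0.447 fpm in N2 in untreated RNA. A small nucleolar RNA gene, F47E1.19, on the same strand, held 11.7 ± 2.62 fpm in rde-11 worms and 87.9 ± 6.51 fpm in N2 (SD, n = 2 each). Whether the counting used strand is not given, so reads of these genes and of linc-22 cannot be told apart.

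Next in size came linc-61, at 3.34 and 5.84 fpm in rde-11 worms, against 26.7 and 29.1 fpm in N2 (log2 change -2.41 ± 0.25 SE, limma adjusted p = 4.72e-05). Its nearest protein-coding neighbour, the histone H4 gene his-1 at 267 nt, was also lower, at 2.48 ± 0.380 fpm in rde-11 worms and 10.6 ± 1.95 fpm in N2 (SD, n = 2 each; limma adjusted p = 0.00112). The gene linc-14 held 4.52 and 5.03 fpm in rde-11 worms, against 16.7 and 16.7 fpm in N2 (log2 change -1.62 ± 0.22, limma adjusted p = 0.000544). For both linc genes all N2 libraries lay above all rde-11 libraries.

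The gene linc-15 held 39.5 and 51.9 fpm in rde-11 worms, against 134 and 146 fpm in N2 (log2 change -1.60 ± 0.16 SE, limma adjusted p = 4.68e-05). For linc-8, one of the most abundant members, the values were 908 and 974 fpm in rde-11 worms, against 2134 and 2260 fpm in N2 (log2 change -1.22 ± 0.09, limma adjusted p = 2.20e-06). The libraries of the 2 strains did not overlap in either gene, and linc-8 was 2.33-fold lower in rde-11 worms.

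Smaller decreases that also passed the test were those of linc-121 (-1.49), linc-46 (-1.38), linc-106 (-1.16), linc-25 (-1.10), linc-19 (-0.91), linc-24 (-0.84) and linc-17 (-0.58), all as log2 changes. The abundant linc-45, linc-11, linc-7, linc-63 and linc-29 fell by 0.55, 0.41, 0.34, 0.33 and 0.33 on the log2 scale. At linc-29 the treated level was 9498 and 9462 fpm in rde-11 worms, against 12040 and 11769 fpm in N2. The calls of linc-22, linc-61, linc-14, linc-15, linc-46, linc-8, linc-25, linc-19 and linc-24 held under every alternative that was run, as did that of linc-59. Those of linc-106, linc-11, linc-121, linc-17, linc-29, linc-45, linc-63 and linc-7 were lost under at least 1. Leaving out 1 library ended the call of linc-11 (N2 replicate 1, adjusted p = 0.0878), of linc-17 (rde-11 replicate 1, 0.179) and of linc-121 (rde-11 replicate 2, 0.0547). It ended that of linc-106 without N2 replicate 1 (0.142) or rde-11 replicate 2 (0.194), all in limma. For linc-63 and linc-7 it did so without either N2 library or rde-11 replicate 2, at limma adjusted p from 0.0561 to 0.17 and from 0.0807 to 0.0946.

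Neighbours did not all follow their linc gene in rde-11 worms. Of 20 protein-coding neighbours tested beside the called linc genes, 6 were called in the same direction and 2 in the opposite one. C49F5.6, at 191 nt from linc-15, held 4.97 ± 0.197 fpm in rde-11 worms and 1.84 ± 0.572 fpm in N2 (SD, n = 2 each; log2 change 1.09, limma adjusted p = 0.0296). At 156 nt from linc-46, math-44 held 169 ± 21.9 fpm in rde-11 worms and 107 ± 3.93 fpm in N2 (SD, n = 2 each; log2 change 0.65, limma adjusted p = 0.0121). The share of called neighbours was not set against other genes.

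One linc gene went the other way. Treated RNA held linc-59 at 964 and 889 fpm in rde-11 worms, against 540 and 468 fpm in N2, so the rde-11 libraries were all above the N2 libraries (log2 change 0.88 ± 0.11 SE, limma adjusted p = 0.000235). The piRNA gene 21ur-12752, which overlaps it on the opposite strand, held 51.8 ± 2.92 fpm in rde-11 worms and 24.1 ± 3.06 fpm in N2 (SD, n = 2 each). In untreated RNA this piRNA gene averaged 0.344 fpm in rde-11 worms and 0.680 fpm in N2. The strand of the counting is not given, so its reads and those of linc-59 cannot be told apart.

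**Figure D2:**
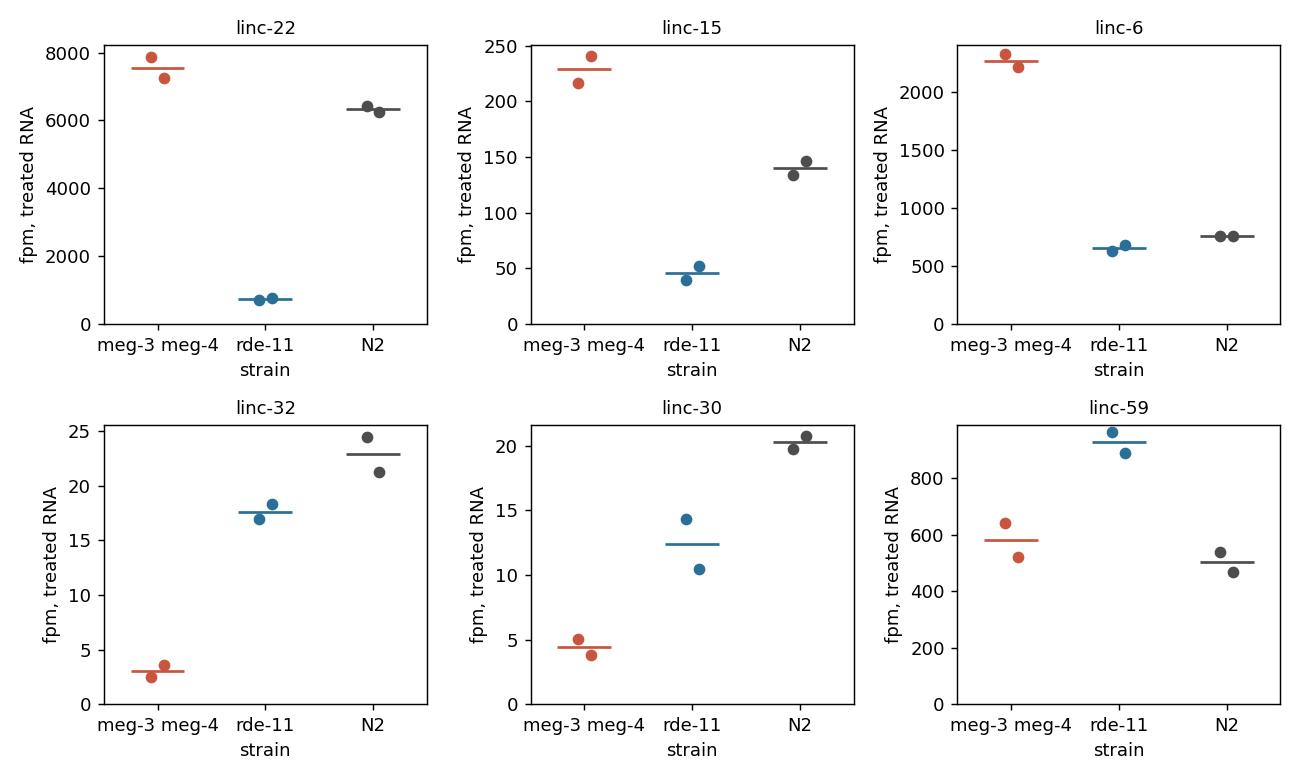
Treated RNA levels (fpm) of linc-22, linc-15, linc-6, linc-32, linc-30 and linc-59 in each library, with the mean of each strain as a line; each axis starts at 0. The rde-11 points of linc-22 and linc-15 lie lowest, the meg-3 meg-4 points of linc-6 lie highest and those of linc-32 and linc-30 lowest, and the rde-11 points of linc-59 lie highest.

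ERGO-1 is the Argonaute that starts an endogenous silencing pathway in embryos, and NRDE-3 is the nuclear Argonaute that carries its secondary small RNAs. Of 8 listed targets of the pathway 6 were matched to the tables, and of these 5 were called lower and 0 higher in treated RNA of rde-11 worms, with a median log2 change of -1.21, and 5 were called lower under both centrings. One of them, C44B11.6, lies 540 nt from linc-45 and 1795 nt from linc-19, and held 558 ± 29.1 fpm in rde-11 worms and 1466 ± 87.6 fpm in N2 (SD, n = 2 each). Among 21 tested genes of the exogenous amplification machinery 5 were higher (23.8%), where 6.34% of all genes were called higher, and 18.9% of all genes and 22.3% of protein-coding genes at a mean of at least 50 fpm. The higher genes include the RNA-dependent RNA polymerase genes ego-1 (0.75) and rrf-1 (0.70), and the 1 lower gene was the Argonaute gene sago-1 (-1.96), all as log2 changes. Centring on the median gene left 3 higher and 1 lower, and centring on the microRNAs 4 and 1. The yolk gene vit-2 was lower (log2 change -0.92), and the 6 yolk genes summed to 45.1 fpm in rde-11 worms and 70.1 fpm in N2. In untreated RNA these genes summed to 57.0 ± 8.16 fpm in rde-11 worms and 35.5 ± 17.95 fpm in N2 (SD, n = 2 each), with vit-6 called higher (log2 change 0.95, limma adjusted p = 0.0427). The part of yolk gene levels in the linc values was not tested.

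In meg-3 meg-4 worms few linc genes differed from N2 in treated RNA. Of 58 tested, limma called 4 higher and 4 lower than N2, beside 1.54% higher and 6.72% lower among all 16253 genes tested (8.27% called in all). The estimates split into 29 above 0 and 29 below 0. The median linc change was -0.0005 on the log2 scale, while the median of all genes tested was -0.13. Centring on the microRNAs left 1 linc gene higher and 4 lower, and placed the linc median at -0.25. Centring on the median gene placed it at 0.14, with 4 higher and 4 lower, so the group's median has no direction that is free of the scaling.

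The largest increase was at linc-6, a gene with an exon length of 174 nt on chromosome X. Its treated level was 2324 and 2213 fpm in meg-3 meg-4 worms, against 759 and 757 fpm in N2. The mutant libraries were 2.99-fold higher, with no overlap (log2 change 1.58 ± 0.09 SE, limma adjusted p = 0.000114), and the call held under every alternative that was run. In untreated RNA linc-6 held 11.7 and 12.6 fpm in meg-3 meg-4 worms, against 3.95 and 6.17 fpm in N2 (log2 change 1.15 ± 0.30, limma adjusted p = 0.0824).

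The nearest protein-coding gene on one side of linc-6 is meg-3 itself, 3585 nt away, one of the 2 genes mutated in this strain. The sources used here do not give the sequence change of the ax3055 allele. The part of that position in the linc-6 result was not tested. The closer neighbour on the other side, F52D2.12 at 1767 nt, was lower where linc-6 was higher, at 6.04 ± 1.37 fpm in meg-3 meg-4 worms and 18.02 ± 1.86 fpm in N2 (SD, n = 2 each; log2 change -1.44, limma adjusted p = 0.0140). The pseudogene fbxa-46, which overlaps linc-6 on the opposite strand, was listed at 6.2 fpm in meg-3 meg-4 worms and 6.4 fpm in N2.

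Higher calls also went to linc-44, linc-15 and linc-22. For linc-44 the treated level was 28.5 and 26.1 fpm in meg-3 meg-4 worms, against 14.1 and 9.55 fpm in N2 (log2 change 1.17 ± 0.27 SE, limma adjusted p = 0.0378). For linc-15 it was 217 and 241 fpm in meg-3 meg-4 worms, against 134 and 146 fpm in N2 (log2 change 0.71 ± 0.17, limma adjusted p = 0.0451). In each gene the mutant libraries lay above both N2 libraries, but leaving out either N2 library ended the call, at limma adjusted p from 0.0799 to 0.417 for linc-44 and at 0.34 and 0.527 for linc-15.

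For linc-22 the values were 7876 and 7236 fpm in meg-3 meg-4 worms, against 6424 and 6257 fpm in N2, a 1.19-fold increase (log2 change 0.25 ± 0.06 SE, limma adjusted p = 0.0456). This call stood in 3 of 12 alternatives. It was lost without N2 replicate 1 (adjusted p = 0.122), without N2 replicate 2 (0.21) and without meg-3 meg-4 replicate 1 (0.11), all in limma.

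The lower calls went to genes of low or moderate level. The gene linc-32 held 2.54 and 3.60 fpm in meg-3 meg-4 worms, against 24.5 and 21.2 fpm in N2, a 7.45-fold lower level (log2 change -2.56 ± 0.26 SE, limma adjusted p = 0.00103). The gene linc-30 held 5.07 and 3.79 fpm in meg-3 meg-4 worms, against 19.8 and 20.8 fpm in N2 (log2 change -1.98 ± 0.25, limma adjusted p = 0.00269). Both decreases exceeded the spread between libraries, and their calls held under every alternative that was run.

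The gene linc-104 held 12.9 and 9.28 fpm in meg-3 meg-4 worms, against 31.6 and 34.8 fpm in N2 (log2 change -1.52 ± 0.26 SE, limma adjusted p = 0.0102). This call was lost without N2 replicate 2 (limma adjusted p = 0.0834). The gene linc-121 held 1.69 and 0.568 fpm in meg-3 meg-4 worms, against 5.30 and 5.25 fpm in N2 (log2 change -1.61 ± 0.33, limma adjusted p = 0.0258). At linc-121 the lower mutant library stood at the worth of 3 reads.

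The protein-coding genes on either side of linc-30, Y20F4.4 and Y20F4.8, were both called lower in meg-3 meg-4 worms, at 233 ± 11.1 fpm and 78.4 ± 11.4 fpm, against 643 ± 40.7 fpm and 211 ± 16.2 fpm in N2 in treated RNA (SD, n = 2 each). The gene eri-6, a helicase gene of the endogenous pathway that overlaps linc-104 on the opposite strand, held 4473 ± 242 fpm in meg-3 meg-4 worms and 3751 ± 8.32 fpm in N2 (SD, n = 2 each; log2 change 0.25 ± 0.07 SE, limma adjusted p = 0.0675). The level of linc-104 thus lay far under that of the gene it overlaps, and its estimate had the opposite sign. The neighbour sosi-1, 4641 nt from linc-104, was lower like linc-104, at 263 ± 12.4 fpm in meg-3 meg-4 worms and 1340 ± 77.7 fpm in N2 (SD, n = 2 each; log2 change -2.35, limma adjusted p = 7.8e-05). The protein-coding gene 188 nt from linc-121 was lower in both mutants, at 2.30 ± 0.0367 fpm in meg-3 meg-4 worms, 1.29 ± 0.163 fpm in rde-11 worms and 11.3 ± 3.55 fpm in N2 (SD, n = 2 each; log2 changes -1.87 and -2.40). In all, 10 protein-coding neighbours of the called linc genes were tested in meg-3 meg-4 worms. Of these, 4 were called in the direction of their linc gene and 2 in the opposite one. The opposite calls were F52D2.12 and meg-3, both beside linc-6, and meg-3 is itself mutated in this strain. The share of called neighbours was not set against other genes here either.

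Of the lists beside the linc genes, the ERGO-1 and NRDE-3 targets split in meg-3 meg-4 worms into 1 lower (E01G4.5, log2 change -1.91) and 1 higher (Y47H10A.5, 0.73) of 6, the higher call being lost under both centrings. The anr- genes gave 2 lower, anr-14 (-2.41) and anr-46 (-0.95), and 0 higher of 32, a share of 6.25% beside the 6.72% of all genes called lower, and 1 lower under each centring. Of 22 tested amplification genes 1 was called, rde-11 itself, whose small RNAs stood at 4359 ± 10.9 fpm in meg-3 meg-4 worms and 633 ± 3.33 fpm in N2 (SD, n = 2 each).

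**Figure D3:**
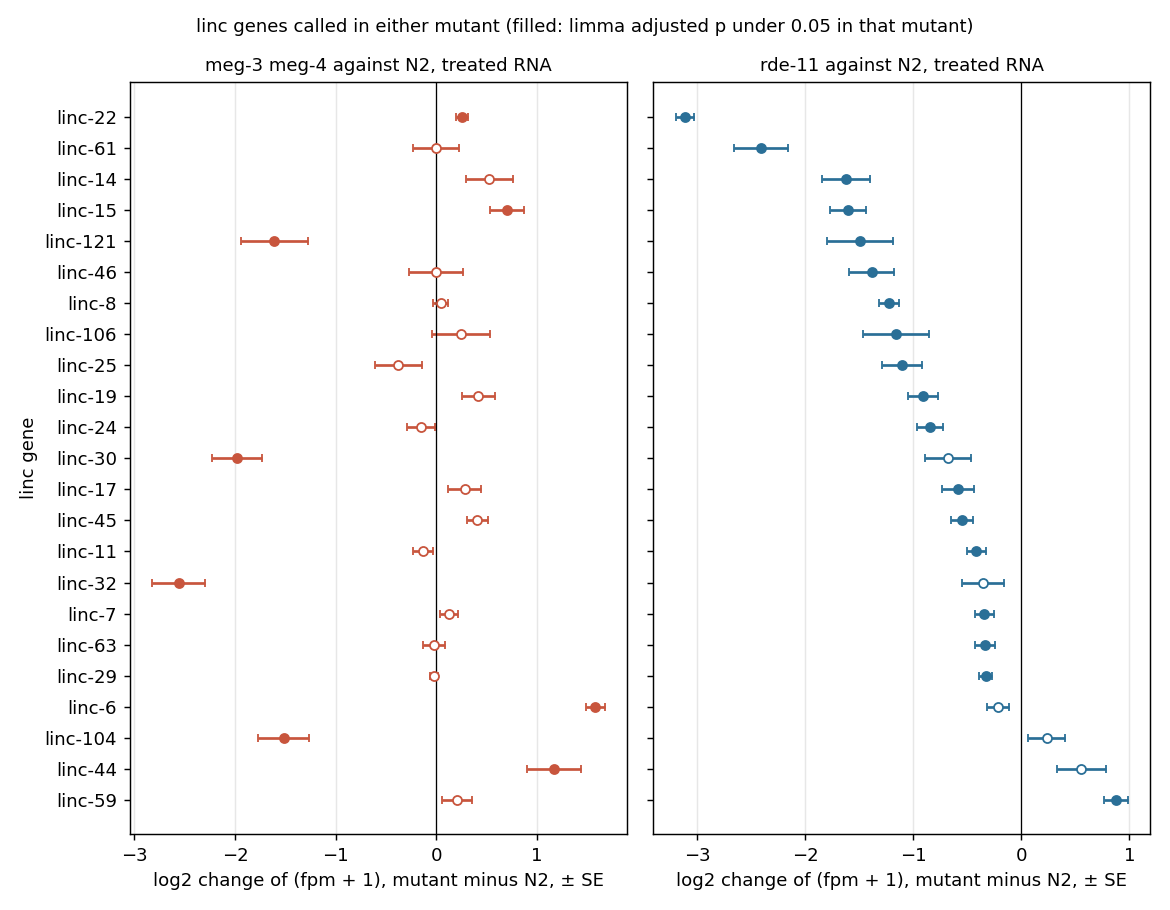
Log2 change of (fpm + 1) with its SE in treated RNA for the linc genes called in either mutant, with meg-3 meg-4 against N2 on the left and rde-11 against N2 on the right; filled points passed limma's adjusted p of 0.05 in that mutant. On the right nearly all filled points lie left of 0 and linc-59 lies right of it. On the left linc-32, linc-30, linc-121 and linc-104 lie furthest left and linc-6 furthest right.

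Both mutants were set against the same N2 libraries, so the 2 panels are not independent of each other. The mutants were also compared directly, in a fit over all 6 libraries of the RNA treatment, where the N2 libraries enter the filter on low values and the shared estimate of the spread but not the difference itself. In treated RNA, limma called 20 of 59 linc genes higher and 8 lower in the double mutant than in rde-11 worms, beside 4.55% higher and 12.6% lower among all genes tested (17.1% called in all). The linc median was 0.32 on the log2 scale and the median of all genes was -0.28. The split was 25 higher and 3 lower with median gene centring and 13 higher and 10 lower with microRNA centring, where the linc median was 0.046.

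The largest difference between the mutants was linc-22, 10.3-fold higher in meg-3 meg-4 worms (log2 change 3.36 ± 0.07 SE, limma adjusted p = 1.3e-07). It was followed by linc-61 (2.40), linc-15 (2.31), linc-14 (2.14) and linc-6 (1.79), each as a log2 change and each called under every alternative run for it. In the other direction linc-32 (-2.21) and linc-104 (-1.75) were lower in meg-3 meg-4 worms and were also called under every alternative, while linc-30 (-1.30) lost its call without rde-11 replicate 1 (limma adjusted p = 0.0965). The gene linc-121 was lower than N2 in both mutants, at 1.13 ± 0.794 fpm in meg-3 meg-4 worms, 1.29 ± 0.682 fpm in rde-11 worms and 5.27 ± 0.0332 fpm in N2 (SD, n = 2 each). For linc-121 the authors' deposited tables give an adjusted p of 0.182 in meg-3 meg-4 worms and 0.069 in rde-11 worms.

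**Figure D4:**
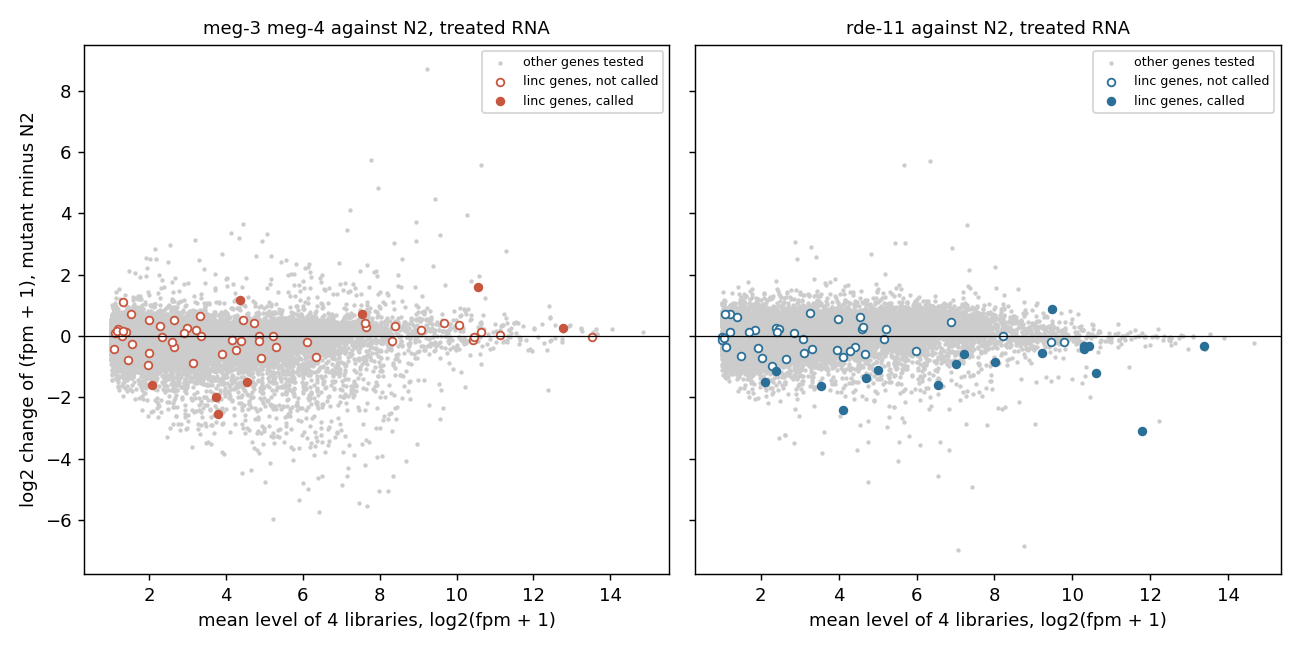
Log2 change of (fpm + 1) against the mean level, log2(fpm + 1), of the 4 libraries compared, with meg-3 meg-4 against N2 on the left and rde-11 against N2 on the right, treated RNA. Grey points are all other genes tested, open circles linc genes that were not called and filled circles linc genes that were called. In the rde-11 panel 11 of the 17 linc genes at a mean of at least 50 fpm were called lower, with linc-22 lowest.

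Untreated RNA gave few calls. In meg-3 meg-4 worms 2 of 31 tested linc genes were called, both lower, where limma called 0.238% of all genes, 0.119% higher and 0.119% lower. The gene linc-154 held 132 and 138 fpm in meg-3 meg-4 worms, against 230 and 232 fpm in N2 (log2 change -0.77 ± 0.16 SE, limma adjusted p = 0.00302). The gene linc-12 held 47.2 and 48.9 fpm in meg-3 meg-4 worms, against 103 and 78.3 fpm in N2 (log2 change -0.89 ± 0.19, limma adjusted p = 0.00499).

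The libraries of the 2 strains did not overlap in either gene, but the calls were lost in another test and under another scaling. In edgeR the adjusted p was 0.163 for linc-154 and 0.293 for linc-12, and edgeR called linc-6 as higher instead, beside 0.215% of all genes. With median gene centring, limma gave an adjusted p of 0.139 for linc-154 and 0.182 for linc-12. Without meg-3 meg-4 replicate 1 the log2 change was -0.74 for linc-154 and -0.87 for linc-12 (limma adjusted p = 0.696 and 0.618), and without replicate 2 it was -0.81 and -0.91 (0.559 for both). The size of the change thus moved little there, while those fits called only 7 genes higher and 1 lower, and 3 higher and 5 lower, of all genes tested. The authors' deposited table gives a log2 fold change of -0.56 with an adjusted p of 0.299 for linc-154 and of -0.71 with an adjusted p of 0.763 for linc-12.

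In untreated RNA of rde-11 worms linc-154 lay on the other side of N2. It held 407 and 378 fpm in rde-11 worms, against 230 and 232 fpm in N2 (log2 change 0.76 ± 0.17 SE, limma adjusted p = 0.00186). The call was lost in edgeR (adjusted p = 0.114) and with median gene centring (limma adjusted p = 0.0681). With any 1 of the 4 libraries left out the log2 change stayed between 0.71 and 0.81, at limma adjusted p from 0.208 to 0.451. Those fits had little power: limma called 0 and 1 of all genes without N2 replicate 1 or 2, 19 higher and 9 lower without rde-11 replicate 1, and 4 higher and 7 lower without rde-11 replicate 2.

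The other call of 33 tested in rde-11 worms was linc-22, at 3.65 and 3.86 fpm in rde-11 worms, against 17.5 and 22.4 fpm in N2 (log2 change -2.13 ± 0.30 SE, limma adjusted p = 1.98e-09), where limma called 0.593% of all genes, 0.396% higher and 0.198% lower. Without N2 replicate 1 the log2 change of linc-22 was -2.30 (limma adjusted p = 0.217) and without replicate 2 it was -1.96 (0.208), in fits where limma called 0 and 1 of all genes, so these lost calls say nothing of linc-22 itself. In the full set of libraries edgeR also called linc-22 lower, beside 0.286% of all genes. The authors' deposited table lists linc-22 with a log2 fold change of -2.62 and an adjusted p of 1.07e-05 in untreated RNA and of -3.21 in treated RNA.

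Between the mutants, untreated linc-154 was 2.91-fold lower in the double mutant than in rde-11 worms (log2 change -1.53 ± 0.14 SE, limma adjusted p = 8.75e-08), and this call stood under every alternative. In that comparison 1 linc gene was called higher, linc-22 (log2 change 2.27), and 6 lower of 32 tested, beside 0.488% higher and 6.44% lower of all genes (6.92% in all). The other 5 lower genes were linc-75 (-1.31), linc-16 (-1.18), linc-12 (-0.98), linc-17 (-0.87) and linc-66 (-0.80), each as a log2 change. These 5 calls were lost in edgeR, at adjusted p from 0.1 to 0.464, and with median gene centring. With median gene centring 1 linc gene was higher and 1 lower, and with microRNA centring 1 was higher and 8 lower.

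The embryo microRNAs in untreated RNA summed to 26953 ± 1190 fpm in meg-3 meg-4 worms, 39204 ± 2994 fpm in rde-11 worms and 33351 ± 1570 fpm in N2 (SD, n = 2 each), which is the order of the strains at linc-154 as well. Against N2, limma called 1 of the 8 lower in meg-3 meg-4 worms and 0 in rde-11 worms. Between the mutants it called 7 of 8 lower in meg-3 meg-4 worms. That count depended on the scaling, with 0 of 8 called under median gene centring and 7 lower under microRNA centring. All 8 had reads in each group. The microRNAs let-7 and lin-4, used as larva and adult markers, summed in untreated RNA to 7037 ± 66.8 fpm in meg-3 meg-4 worms. Their sum was 6546 ± 292 fpm in rde-11 worms and 6775 ± 655 fpm in N2 (SD, n = 2 each), which is not the order at linc-154. The part of either set of microRNAs in the linc-154 values was not tested. For linc-12 the difference of rde-11 worms from N2 had no settled sign (log2 change 0.09, limma adjusted p = 0.895; -0.12 in edgeR).

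In treated RNA neither linc-154 nor linc-12 was called in either mutant with all libraries. For linc-154 the treated values were 70.4 and 49.6 fpm in meg-3 meg-4 worms, 147 and 120 fpm in rde-11 worms, and 126 and 74.7 fpm in N2. For linc-12 they were 24.7 and 18.2 fpm in meg-3 meg-4 worms, 35.2 and 31.0 fpm in rde-11 worms, and 44.8 and 28.6 fpm in N2. The meg-3 meg-4 libraries lay below those of N2 in both genes, and the 95% interval of the difference ran from -1.42 to -0.04 on the log2 scale for linc-12. The rde-11 libraries overlapped those of N2 in both. Both genes were called lower in meg-3 meg-4 worms when replicate 1 of that strain was left out (limma adjusted p = 0.00405 for linc-154 and 0.012 for linc-12), and linc-154 was called higher in rde-11 worms without N2 replicate 1 (0.00116).

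**Figure D5:**
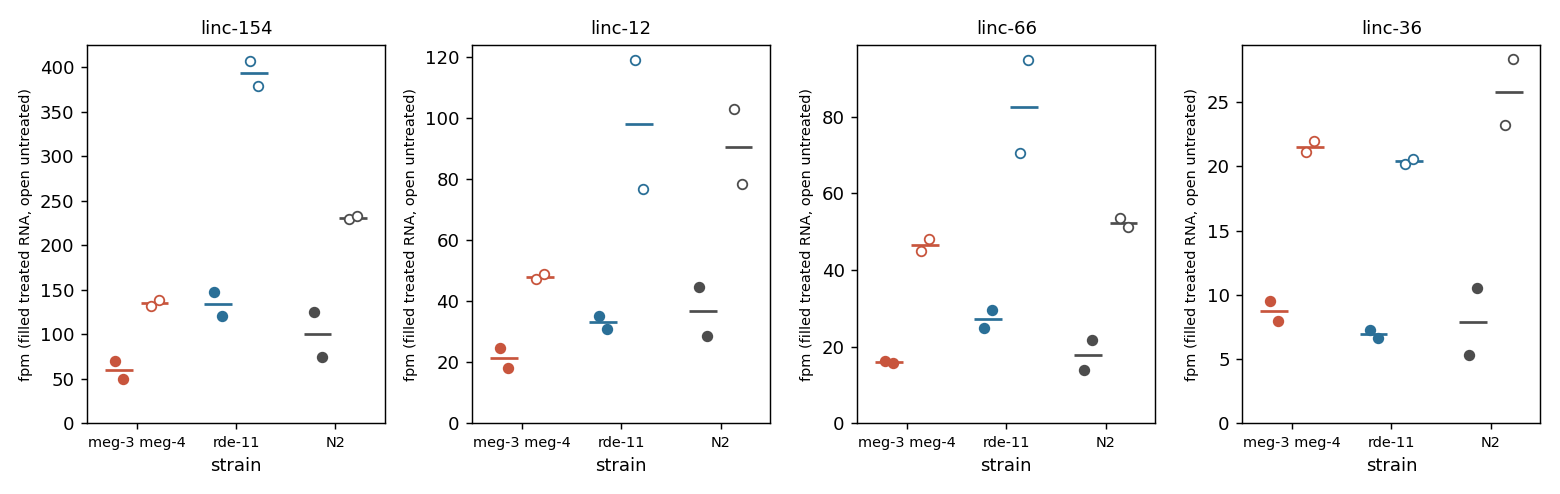
Level (fpm) of linc-154, linc-12, linc-66 and linc-36 by strain, with filled points for treated RNA and open points for untreated RNA, 2 libraries each, and the mean as a line; each axis starts at 0. The open points lie above the filled ones in each strain, and linc-154 in untreated RNA is highest in rde-11 worms and lowest in meg-3 meg-4 worms.

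Whether a strain's difference from N2 depends on the RNA treatment was tested by an interaction term over 8 libraries. For meg-3 meg-4, limma called 3 of 48 linc genes, linc-32 (-2.56), linc-30 (-2.32) and linc-104 (-1.52), beside 2.89% of all genes called in that direction and 3.38% in either. In untreated RNA linc-32 and linc-104 had no read in any meg-3 meg-4 or N2 library, and linc-30 had 0.597 and 0 fpm in meg-3 meg-4 worms and 0 in both N2 libraries. For linc-32 and linc-104 the term therefore equals the treated change, all 3 genes were detected almost wholly in treated RNA, and in edgeR the adjusted p was 1 for all 3, so no dependence on the treatment is shown. For rde-11, limma called 0 of 49 linc genes, beside 0.455% of all genes in either direction and 0.361% with a negative term. edgeR called 1 linc gene with a negative term (linc-14), beside 0.13% of all genes. The interaction of linc-22 was -0.98 ± 0.24 SE for rde-11 (limma adjusted p = 0.16), with its 95% interval from -1.52 to -0.45. Its decrease in treated RNA, on the log2(fpm + 1) scale, was thus not called as different from that in untreated RNA.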

How the data were processed

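The authors deposited 4 tables with 1 value per gene and library in fpm, a CPM unit (fragments scaled to the total assigned to genes, per the file headers), with log2 fold changes and adjusted p-values of their own. Tools listed in the submitters' processing notes are DESeq2, HTSeq, Bowtie2 and cutadapt, with the genome build ce10. The sources used here give neither the strand, nor the treatment of reads that map to several places, nor the read lengths counted. The values were whole multiples of 1 read for 100% of values above 0 (tolerance 0.01 reads), and the N2 columns were equal in the tables that share them. The 8 columns of the authors' averages were not used.

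Values were taken as log2(fpm + 1), so a log2 change is on that scale and understates the change of low genes. Genes that averaged 1 fpm or more in the libraries of the fit were fitted with limma 3.58.1 in R 4.3.3 (trended variance) over the groups compared, or over all 6 libraries of the RNA treatment for meg-3 meg-4 against rde-11, with Benjamini-Hochberg adjustment over all genes of the fit and a threshold of 0.05. Folds quoted in the text are ratios of mean fpm. edgeR 4.0.16 (quasi-likelihood, TMM) was run on the recovered reads as an alternative, with others described further on. Gene models and lengths came from the WBcel235 annotation, which matched 161 linc genes and 99.3% of all IDs, and no coordinates are given since the tables use another build.

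The genes and lists were chosen with earlier results of these data known. Genes were named by rule: linc-22, linc-12, linc-154, the 10 highest by mean level, up to 12 called linc genes in each direction by size, and called list members. The genes linc-66, linc-36 and linc-134, those that neighbour a named linc gene, and genes called between the mutants or between RNA treatments were named after their values were seen. Floors cover counting error only, and the 95% intervals come from limma's SE, which measures the spread between libraries.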

Additional observations from a re-analysis of the deposited data

Results flagged for a closer look

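For 3 linc genes the difference between meg-3 meg-4 worms and N2 was larger in treated than in untreated RNA by limma's interaction term. The interaction was -2.56 on the log2 scale for linc-32, -2.32 for linc-30 and -1.52 for linc-104. In untreated RNA, linc-32 and linc-104 had no read in either the meg-3 meg-4 or the N2 libraries, and linc-30 had 0.597 and 0 fpm in meg-3 meg-4 worms and 0 in both N2 libraries, so no decrease could have been detected there. In edgeR the adjusted p of all 3 interactions was 1.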

How the results depend on the processing

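Each count of called linc genes was recomputed under the alternatives, and the values that moved by more than 1.5 times are as follows, as totals of both directions. Where no filter on low values was used, the count was 11 for rde-11 against N2 in treated RNA, and in untreated RNA 0 for meg-3 meg-4 against N2, 1 for rde-11 against N2 and 2 for meg-3 meg-4 against rde-11, with more genes tested. On recovered reads edgeR gave 1, 1 and 3 for these 3 untreated comparisons, 0 for the interaction of meg-3 meg-4 and 1 for that of rde-11. Centring on the median gene gave 29 for rde-11 against N2 in treated RNA, and in untreated RNA 1 for meg-3 meg-4 against N2, 1 for rde-11 against N2 and 2 for meg-3 meg-4 against rde-11. Centring on the microRNAs gave 5 for meg-3 meg-4 against N2 in treated RNA and 6 in untreated RNA. A pseudocount of 0.25 fpm left 1 interaction for meg-3 meg-4, and a minimum of 5 fpm gave 1 for rde-11.

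With 1 library left out at a time the counts ranged from 4 to 12 for meg-3 meg-4 against N2 and from 14 to 18 for rde-11 against N2 in treated RNA. In untreated RNA they ranged from 0 to 3 and from 0 to 1. For meg-3 meg-4 against rde-11 they ranged from 14 to 27 in treated and from 3 to 7 in untreated RNA, and for the interaction of meg-3 meg-4 from 1 to 3. The lone library left in a group was assumed to vary like the other group.

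Labels number the libraries 1 and 2 in each group but do not say that a number marks a shared batch. Replicate differences correlated between groups by 0.168 to 0.587 over genes, all above 0. With the number as a replicate block the counts were 15 for meg-3 meg-4 and 30 for rde-11 against N2 in treated RNA, 5 for meg-3 meg-4 against N2 in untreated RNA, and 5 and 2 for the interactions of meg-3 meg-4 and rde-11. In treated RNA, where neither gene was called without it, the block called linc-154 lower in meg-3 meg-4 worms (limma adjusted p = 0.00365) and higher in rde-11 worms (0.00112), and linc-12 lower in meg-3 meg-4 worms (0.0162).

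Sign changes occurred only in values that were not called. For linc-12 in rde-11 against N2, the treated log2 change ranged from -0.43 to 0.20 with 1 library left out. The untreated one ranged from -0.22 to 0.40, and was -0.12 in edgeR and -0.079 with median gene centring. For linc-22 in meg-3 meg-4 against N2, untreated RNA, it ranged from -0.10 to 0.38. Of 959 gene values under alternatives, 773 kept their sign and call, 173 lost the call and 6 gained one. The cause of these shifts was not tested. Below about 0.568 to 0.772 fpm, the worth of 3 reads, no difference could be detected. In untreated RNA the minimum of 1 fpm left 31 to 33 of the 161 linc genes in the comparisons between strains. Without that filter 72 to 82 were tested.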
